A study of Mus musculus with 37 samples.

Results

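Foxa1, Gata3, Tbx3, Spdef, Grhl2 and Tfap2c encode transcription factors that set and hold luminal identity in the mammary gland. These 6 genes were chosen by name from general mammary biology, but with earlier results of these data known, out of 52636 genes in the count tables. All 6 were among the 18426 genes with enough counts to be tested. They were followed through 37 RNA-seq libraries of mature luminal cells sorted by FACS from mouse mammary glands, in 12 groups formed by 3 genotypes of Esr1, the gene of estrogen receptor alpha, and 4 treatments. The question was how estradiol (E2) and progesterone (P4) changed their expression in wild-type cells, and whether the D542G and Y541S forms of the receptor changed the levels without hormone or the responses to it.

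The genotypes were WT, D542G and Y541S, and both mutants carry an amino acid change in the part of the receptor that binds hormone. The treatments were placebo, E2, P4 and both hormones together (E2+P4). Every animal, placebo groups included, was raised to 8 weeks, was ovariectomized and then carried pellets for 8 days. The series' design calls the libraries biological replicates, 3 in each of 11 groups and 4 in WT P4. The sources used here do not give the strain, whether a mutant allele was carried in 1 or 2 copies or limited to some cells, or whether a library came from 1 animal or a pool. The p-values measure the spread between these libraries.

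Foxa1 is a forkhead factor that opens chromatin for the estrogen receptor, and Gata3 is a zinc finger factor without which luminal cells are lost. Tbx3 is a T-box transcriptional repressor expressed in the hormone-sensing luminal line, and Spdef is an ETS factor found in luminal and secretory epithelia. Grhl2 maintains epithelial junction genes in many epithelia. Tfap2c (AP-2 gamma) acts in luminal cells and is also expressed in luminal progenitors, the cells from which milk-secreting alveolar cells arise. Hormone-sensing luminal cells carry the estrogen and progesterone receptors, and sorted mature luminal cells are enriched in them.

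Promoter windows are shown because E2 acts through a receptor that can bind DNA directly, and 3 of the 6 genes had one in the RefSeq table used (Foxa1, Gata3 and Spdef). Each window runs from 250 bases before to 50 bases after the RefSeq start site, 300 bases in all, read 5′ to 3′ on the gene's strand, which is the minus strand for all 3, in GRCm38.p6. Capitals mark matches, on either strand, to 8 motifs: the estrogen response half-site (GGTCA), the progesterone and glucocorticoid response half-site (TGTTCT), the forkhead core (TGTTTA) and the strings known for GATA-family factors (AGATAA), T-box factors (GGTGTGA), ETS factors (CCGGAT), Grainyhead-like factors (AACCNGTT) and AP-2 (GCCNNNGGC).
Foxa1 (chr12:57546062-57546361): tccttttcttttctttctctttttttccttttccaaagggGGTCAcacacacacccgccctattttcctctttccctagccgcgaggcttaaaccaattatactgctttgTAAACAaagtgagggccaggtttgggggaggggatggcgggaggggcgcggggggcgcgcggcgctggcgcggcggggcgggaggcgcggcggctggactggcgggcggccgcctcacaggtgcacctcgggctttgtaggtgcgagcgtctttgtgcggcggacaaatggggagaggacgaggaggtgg
Gata3 (chr2:9878551-9878850): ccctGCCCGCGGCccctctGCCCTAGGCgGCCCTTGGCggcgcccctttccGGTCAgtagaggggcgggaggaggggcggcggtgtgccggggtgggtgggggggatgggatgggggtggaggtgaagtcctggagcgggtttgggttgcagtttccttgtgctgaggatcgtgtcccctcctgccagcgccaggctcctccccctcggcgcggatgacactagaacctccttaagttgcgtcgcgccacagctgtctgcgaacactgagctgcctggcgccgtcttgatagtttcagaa
Spdef (chr17:27728902-27729201): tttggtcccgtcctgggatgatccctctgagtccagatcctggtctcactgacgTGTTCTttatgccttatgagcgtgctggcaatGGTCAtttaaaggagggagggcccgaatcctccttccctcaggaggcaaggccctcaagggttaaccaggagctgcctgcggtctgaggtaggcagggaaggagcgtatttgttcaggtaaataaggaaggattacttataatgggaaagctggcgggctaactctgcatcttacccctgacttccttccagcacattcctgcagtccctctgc
GGTCA occurred once in each window, at bases -210 to -206 of Foxa1, -199 to -195 of Gata3 and -164 to -160 of Spdef from the start site. This short string is common: 40.5% of the 32851 promoter windows in the table held it. Foxa1 also held the forkhead core at -140 to -135, on the other strand (13.4% of all windows). Spdef held TGTTCT at -196 to -191 (19.0% of windows). Gata3 held 3 AP-2 matches, at -246 to -238, -231 to -223 and -221 to -213, where 16.6% of windows held at least 1. No match overlapped another, and these windows had no match to AGATAA (in 11.2% of all windows), GGTGTGA (3.98%), CCGGAT (6.04%) or AACCNGTT (2.09%). A match describes the letters only and is no evidence of binding.

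The 6 genes lie apart in the genome (GRCm38, GENCODE M21): Foxa1 on chr12:57540628-57546916, Gata3 on chr2:9857078-9890034 and Spdef on chr17:27714352-27728955, all on the minus strand, and Tbx3 on chr5:119670669-119684724, Grhl2 on chr15:37233036-37363569 and Tfap2c on chr2:172549593-172558622, all on the plus strand. The promoter windows of Foxa1 and Gata3 lie inside the annotated spans of those genes, at start sites internal to them. Annotated exons of Grhl2 overlap the antisense gene Gm16136, which had 42901 counts over all libraries against 144215 for Grhl2. Their overlap spans 274 bases, while the exons of Grhl2 cover 8613 bases. Exons of Tbx3 overlap Tbx3os1 (2248 counts against 272445), and exons of Gata3 overlap Gm13256 (184 counts) and 9230102O04Rik (78 counts) against 320419 for Gata3. How reads in shared bases were assigned is not given in the sources used here, so the Grhl2 level carries the largest uncertainty of this kind.

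Libraries held 25.69 to 52.24 M counts (median 41.26 M counts), and the lowest count of any of the 6 genes in any library was 42, for Tfap2c in D542G E2 3. Luminal epithelial markers (Krt8, Krt18, Krt19, Epcam, Cdh1 and Cldn3) summed to between 15130 and 37850 CPM (counts scaled to a common library total, TMM-adjusted) in every library, and none of these markers was at 0 anywhere. Some libraries stood apart in markers of other cells. Basal and myoepithelial markers (9 genes) summed to 912 CPM in WT placebo 2 and 821 CPM in WT P4 2, against 57.45 to 85.91 CPM in the other WT placebo and WT P4 libraries. Y541S placebo 5 had 1172 CPM of 6 hormone-sensing markers against 4370 and 5112 CPM in Y541S placebo 2 and 3, and 6051 CPM of 9 progenitor and alveolar markers against 3018 and 1689 CPM. It also came from a later series of sample identifiers, together with WT P4 4 and WT P4 5, and these 3 libraries had at most 31.33 M counts against at least 32.67 M counts in all others. Results that involve Y541S placebo are therefore given with and without library 5, as a range where no call changed. Fibroblast markers (7 genes) summed to 4046 and 4106 CPM in Y541S placebo 2 and 3, against 454.5 CPM in library 5 and at most 921 CPM in all other groups. Most of that sum was Dcn, at 204.9 to 4054 CPM over the Y541S placebo libraries, while none of the other 6 fibroblast markers exceeded 212 CPM in any library. Leaving out library 5 thus leaves the pair of libraries with the high Dcn. These are sorted but bulk samples, in which fewer cells of a type and less RNA per cell cannot be told apart.

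Levels are CPM after scaling of library totals, and values are listed in the order of the sample numbers in the labels (1 to 3 in most groups, 2 to 5 in WT P4, and 2, 3 and 5 in Y541S placebo). Only levels per kilobase of exon are compared between genes. On that scale Foxa1 was the highest in WT placebo, at 210.0 ± 53.7 CPM per kb of exon (SD, n = 3). Tbx3 (76.5 ± 17.0) and Gata3 (76.2 ± 14.0) were next. Spdef (17.8 ± 6.82) and Grhl2 (16.3 ± 1.36) lay lower, and Tfap2c was the lowest at 7.01 ± 2.67 CPM per kb. In WT E2 that order no longer held: Gata3 (37.9 ± 11.1) and Tfap2c (36.9 ± 7.33) had the highest mean levels per kb, and Tbx3 was at 6.56 ± 0.612 CPM per kb.

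**Figure D1:**
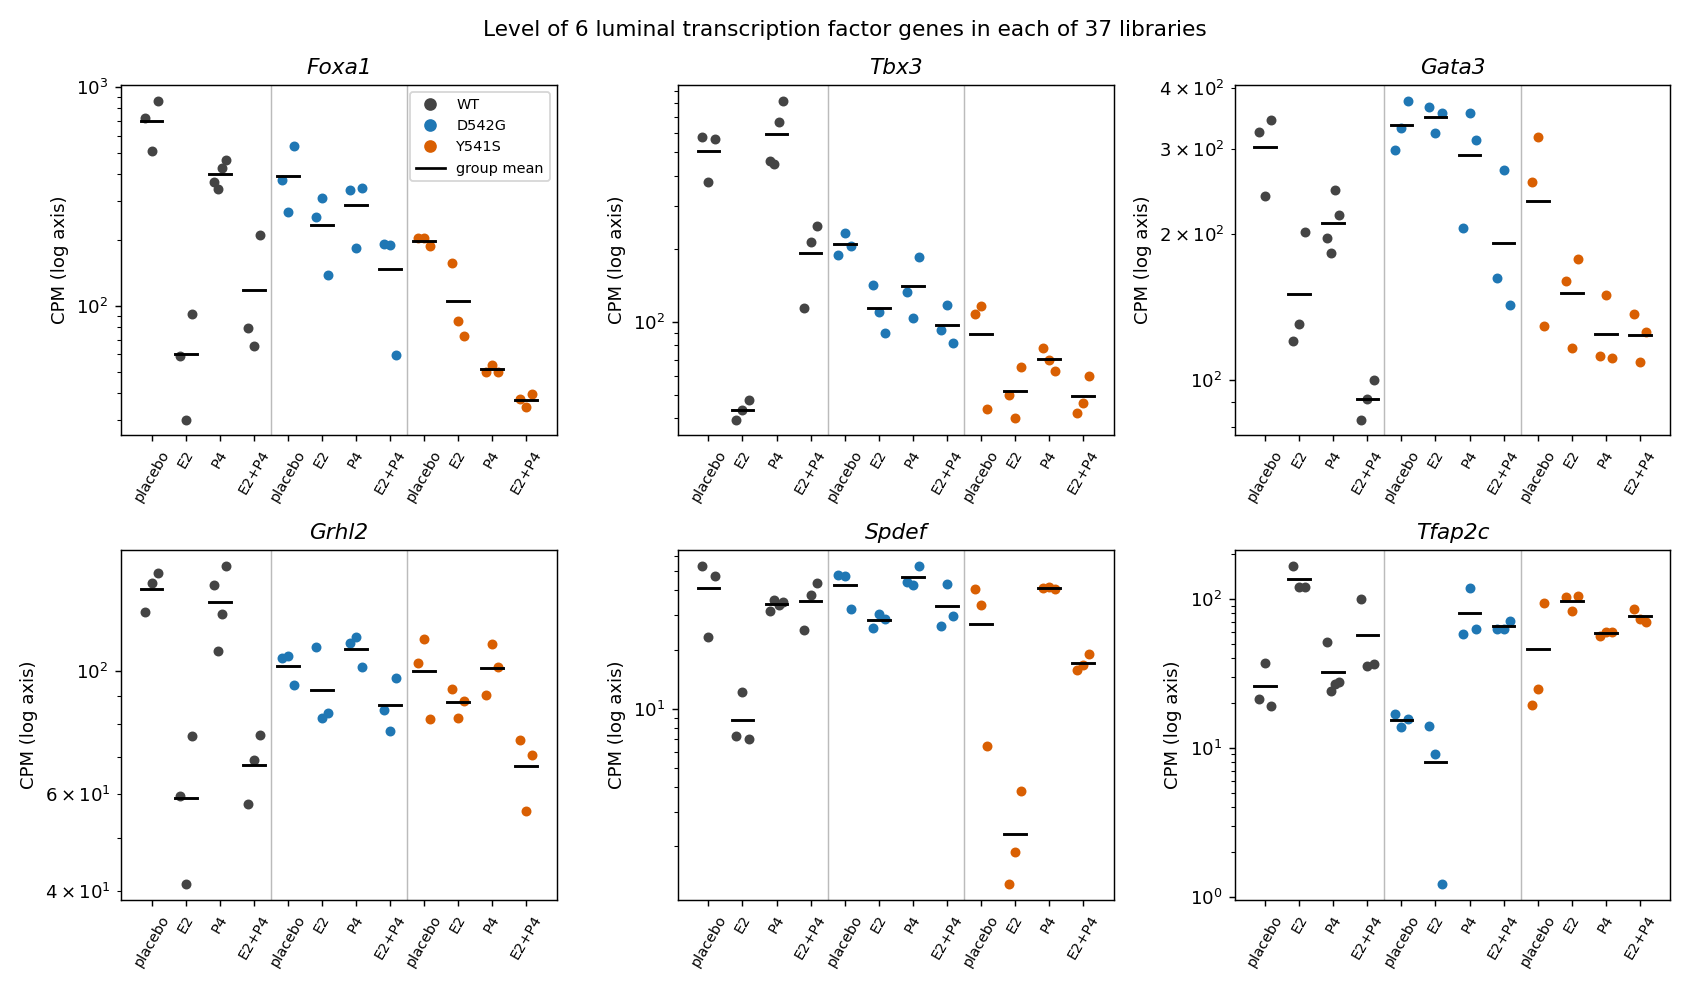
CPM (log axis) of each of the 6 genes in each of 37 libraries, by treatment within genotype; points are libraries, coloured by Esr1 genotype, and black bars are group means. In WT E2 every library lies below every WT placebo library for 5 genes and above for Tfap2c, and Y541S placebo holds 1 library apart from the other 2 for Tbx3, Spdef and Tfap2c.

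In wild-type cells E2 changed all 6 genes against placebo: Foxa1, Gata3, Tbx3, Spdef and Grhl2 fell and Tfap2c rose. Across the genome 31.5% of tested genes were called in that comparison, 15.9% lower and 15.6% higher (edgeR's quasi-likelihood test, Benjamini-Hochberg adjusted p under 0.05). The median log2 fold change of the 6 genes was -1.74, against 0.03 over all genes tested. As the 6 genes were chosen with earlier results known, shares and medians over all genes are given for scale only. In each of the 6 genes the WT E2 and WT placebo libraries did not overlap, which held for 39.1% of all tested genes. Lack of overlap was thus common, and where it is given below without such a share it only describes the libraries. The count stayed at 6 of 6 without WT placebo 2, WT P4 2 and Y541S placebo 5.

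Foxa1 was at 722, 509 and 865 CPM in the WT placebo libraries and at 59.3, 30.2 and 92.2 CPM in WT E2. It was about 11.5-fold lower with E2 (log2 fold change -3.53 ± 0.47, adjusted p = 1.81e-06), where the value after ± is the standard error, as for all fold changes. Tbx3, at 578, 377 and 566 CPM with placebo and 39.6, 43.1 and 47.7 CPM with E2, fell by a similar factor of 11.7 (log2 fold change -3.54 ± 0.33, adjusted p = 1.53e-08). The WT E2 libraries of Tbx3 lay close together, whereas those of Foxa1 were more spread.

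Spdef read 52.9, 23.3 and 47.2 CPM with placebo and 7.23, 12.2 and 7.02 CPM with E2, a 4.67-fold lower level (log2 fold change -2.22 ± 0.42, adjusted p = 1.65e-04). Changes of Gata3 and Grhl2 were smaller. Gata3 went from 326, 239 and 344 CPM to 120.3, 130.5 and 202 CPM (log2 fold change -1.01 ± 0.26, adjusted p = 0.00398), and Grhl2 from 128, 144 and 150.0 CPM to 59.5, 41.2 and 76.2 CPM (-1.25 ± 0.17, adjusted p = 3.71e-06). In both genes every E2 library lay below every placebo library.

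Tfap2c moved the other way, from 21.2, 37.1 and 19.1 CPM with placebo to 167, 120.4 and 120.0 CPM with E2, 5.27-fold higher (log2 fold change 2.40 ± 0.56, adjusted p = 0.00143). Every WT E2 library lay above every WT placebo library. Marker genes moved alongside. Of 8 tested progenitor and alveolar markers, 7 rose with E2 in WT, among them Cd14, Wfdc18 and Lcn2, and their summed level was 11170 to 39800 CPM in WT E2 against 3031 to 3656 CPM in WT placebo, with Csn3 listed at 0 in all 37 libraries. All 6 hormone-sensing markers fell, from a summed 4231 to 6545 CPM to 513 to 1126 CPM. Leukocyte markers (10 genes) summed to 26.6 to 135 CPM in WT E2 against 3.03 to 5.26 CPM in WT placebo, with Itgam listed at 0 in all libraries, and erythroid markers (4 genes) to 224 to 336 CPM against 24.9 to 63.4 CPM. The part of these markers in the changes of the 6 genes was not tested.

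**Figure D2:**
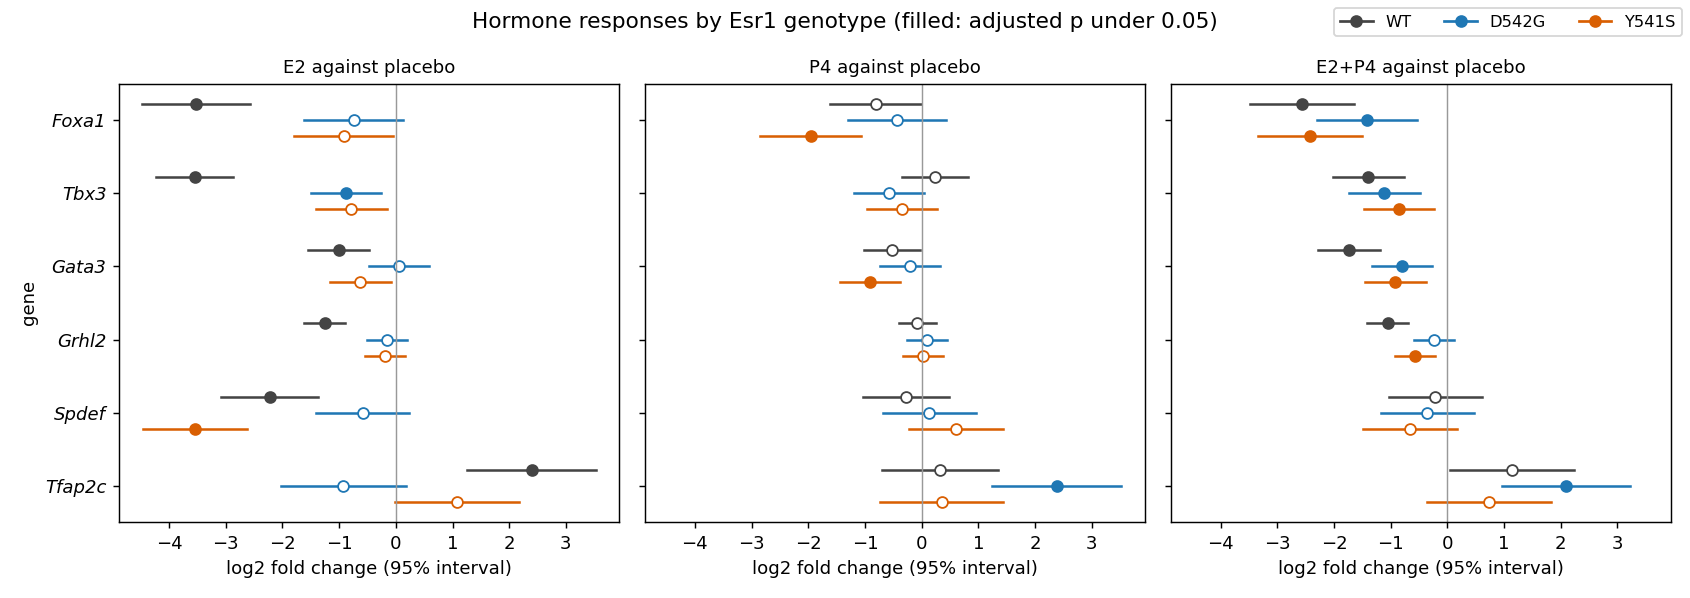
Log2 fold change of each gene with E2, P4 or E2+P4 against placebo of the same genotype; points are estimates over 3 or 4 libraries a group, lines are 95% intervals, and filled points had an adjusted p under 0.05. All 6 WT points are filled for E2 and none for P4, and the Tfap2c points of D542G are filled for P4 and E2+P4.

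P4 alone gave no call among the 6 genes in WT cells, where 1.43% of all tested genes were called. At an unadjusted p under 0.05 the count was 2 (Foxa1 and Gata3), against 2556 of the 18426 tested genes. DESeq2 also called 0, against 760 over all genes. Foxa1 was at 369, 340.4, 425 and 464 CPM (log2 fold change -0.81 ± 0.39, adjusted p = 0.359), all 4 libraries below the WT placebo libraries. Gata3 was at 197, 183, 246 and 219 CPM (log2 fold change -0.52 ± 0.24, adjusted p = 0.329). Tbx3 reached 460.3, 449, 666 and 816 CPM, the highest group mean of that gene, with a 95% interval of the log2 difference from placebo of -0.34 to 0.82. The values of 666 and 816 CPM are those of WT P4 4 and WT P4 5, from the later identifier series. The estimate of 0.24 changed sign in 1 of 15 alternatives (lowest -0.15). Spdef was at 31.4, 35.5, 33.8 and 34.9 CPM (interval -1.04 to 0.48) and Grhl2 at 143, 109, 127 and 155 CPM (interval -0.41 to 0.25). Tfap2c read 51.1, 24.0, 26.7 and 27.6 CPM, with the first of these, WT P4 2, the library rich in basal markers (interval -0.69 to 1.35). The interval of Grhl2 is narrow and that of Tfap2c is wide.

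With both hormones 4 of the 6 genes were lower than with placebo in WT (23.4% of all tested genes called, 11.5% lower), and Spdef and Tfap2c were not called. Foxa1 was at 79.0, 65.3 and 211 CPM (log2 fold change -2.56 ± 0.45, adjusted p = 8.76e-05) and Gata3 at 83.0, 91.6 and 99.9 CPM (log2 fold change -1.73 ± 0.27, adjusted p = 1.72e-05). Gata3 thus had its lowest group mean under the combination. Tbx3 was at 114, 214 and 248 CPM (-1.40 ± 0.31, adjusted p = 0.00112) and Grhl2 at 57.4, 69.1 and 76.6 CPM (-1.05 ± 0.17, adjusted p = 4.36e-05). None of these libraries reached the WT placebo range, and the share of all tested genes without overlap is not given for this comparison. Spdef, at 25.2, 37.8 and 43.4 CPM, overlapped its placebo libraries (-0.21 ± 0.40, adjusted p = 0.751). Tfap2c, at 99.0, 35.3 and 36.5 CPM, had 1 library well above the other 2, which lay within the placebo range (1.14 ± 0.54, adjusted p = 0.127). Without WT placebo 2, WT P4 2 and Y541S placebo 5 Tfap2c was called too (1.499, adjusted p = 0.0358), which made 5 of 6. Progenitor markers summed to 5674 to 9431 CPM in WT E2+P4 and endothelial markers (7 genes) to 301 to 480 CPM, against 40.3 to 49.0 CPM of the latter in WT placebo. The endothelial sum was mostly Vwf (289 to 443 CPM against 20.7 to 34.0 CPM), with Cldn5 also called as higher and the other 5 not called. The part of these markers was not tested.

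Adding P4 to E2 raised Tbx3 and Spdef in WT. Against WT E2, with 18.5% of all tested genes called, 10.2% higher, Tbx3 was 4.42-fold higher with both hormones (log2 fold change 2.15 ± 0.31, adjusted p = 1.36e-05) and Spdef 4.03-fold higher (log2 fold change 2.01 ± 0.42, adjusted p = 8.95e-04), with no overlap of libraries. Foxa1 did not pass (0.97 ± 0.43, adjusted p = 0.116), and it was called without WT E2 3 (1.404, adjusted p = 0.0421). Gata3 was lower in each E2+P4 library than in any E2 library but missed the threshold (-0.72 ± 0.26, adjusted p = 0.0532), and passed it without WT E2 1 (-0.86, adjusted p = 0.0345). Grhl2 differed little (0.20 ± 0.17, adjusted p = 0.474). Tfap2c was lower at -1.25 without passing (adjusted p = 0.103), and was called when WT E2+P4 1 was left out (-1.92, adjusted p = 0.0240).

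Against WT P4, adding E2 lowered 4 genes (23.2% of all tested genes called, 11.1% lower). The log2 fold changes were -1.75 for Foxa1 (adjusted p = 0.00253), -1.21 for Gata3 (adjusted p = 6.84e-04), -1.64 for Tbx3 (adjusted p = 1.36e-04) and -0.98 for Grhl2 (adjusted p = 6.27e-05). The interval of the Spdef difference was -0.70 to 0.83. Departure from additivity was tested as the combined response minus both single responses, where 0 means additive on the log2 scale. It was higher than the sum for 3 genes in WT, Spdef (log2 difference 2.29 ± 0.55, adjusted p = 0.00636), Tbx3 (log2 difference 1.91 ± 0.41, adjusted p = 0.00263) and Foxa1 (1.77 ± 0.58, adjusted p = 0.0449), with 11.4% of all tested genes called. The Foxa1 call was lost on leaving out any 1 of WT placebo 1 or 3, WT E2 1 or 2, WT P4 2, 3, 4 or 5, or WT E2+P4 3 (adjusted p from 0.0528 to 0.283). It was also lost without WT placebo 2, WT P4 2 and Y541S placebo 5 together (1.92, adjusted p = 0.0515). With a term for the replicate number in the fit the Spdef call was lost (1.93, adjusted p = 0.0540), as was that of Foxa1 (0.102). Tfap2c was called only without WT E2+P4 1 (-2.25, adjusted p = 0.0499). Estimates for Gata3 and Grhl2 had intervals that include 0 (-0.93 to 0.53 and -0.21 to 0.76).

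In D542G cells E2 changed 1 of the 6 genes, Tbx3 (15.7% of all tested genes called, 7.34% lower). Tbx3 was at 189, 234 and 206 CPM with placebo and 142, 109.8 and 90.0 CPM with E2 (log2 fold change -0.88 ± 0.30, adjusted p = 0.0469). That call was lost without D542G placebo 1, 2 or 3 or D542G E2 2 or 3 (adjusted p from 0.0741 to 0.185). Foxa1 overlapped between 377, 268 and 535 CPM with placebo and 256, 311 and 138 CPM with E2 (log2 fold change -0.74 ± 0.42, adjusted p = 0.247). Gata3 was at 298, 331 and 377 CPM and 366, 323 and 356 CPM, the highest group means of that gene, with a 95% interval of the difference of -0.48 to 0.59. A fall as large as the WT estimate (-1.01) lies outside that interval, but that estimate has an error of its own. The difference between the D542G and WT responses was not called (1.06, adjusted p = 0.0683).

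Grhl2 was at 106, 106 and 94.4 CPM with placebo and 110.5, 82.0 and 84.0 CPM with E2 in D542G (interval -0.50 to 0.20). Spdef read 47.7, 47.3 and 32.2 CPM and 25.8, 30.5 and 28.6 CPM, every E2 library below every placebo library, but was not called (log2 fold change -0.58 ± 0.40, adjusted p = 0.346). Tfap2c was at 16.7, 13.7 and 15.6 CPM with placebo and 14.0, 9.01 and 1.21 CPM with E2, the lowest group mean of that gene in the study (log2 fold change -0.92 ± 0.54, adjusted p = 0.262). The lowest value is that of D542G E2 3, and 1 E2 library overlapped the placebo range. Hormone-sensing markers summed to 4703 to 5331 CPM in D542G E2 and progenitor markers to 884 to 2272 CPM, against 5987 to 6621 and 994 to 2135 CPM in D542G placebo.

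P4 raised Tfap2c in D542G cells, and the other 5 genes were not called (18.4% of all tested genes called, 9.49% higher). Tfap2c reached 58.2, 118 and 62.9 CPM, 5.21-fold above D542G placebo (log2 fold change 2.38 ± 0.56, adjusted p = 0.00372), with the highest value in D542G P4 2. That library also had 9564 CPM of progenitor markers, against 2317 and 3239 CPM in D542G P4 1 and 3, and 5 of 8 such markers rose in the comparison. Hormone-sensing markers summed to 1357 to 2096 CPM in D542G P4 against 5987 to 6621 CPM in D542G placebo, with 4 of 6 lower. The part of both sets in the Tfap2c result was not tested. Foxa1 was at 339.8, 184 and 347 CPM (adjusted p = 0.500) and Gata3 at 206, 355 and 312 CPM (adjusted p = 0.622). Tbx3 was at 133, 104 and 185 CPM, all below its placebo libraries, and was not called (log2 fold change -0.58 ± 0.30, adjusted p = 0.187). Spdef (44.0, 42.4 and 53.4 CPM) and Grhl2 (112, 115 and 101.4 CPM) overlapped their placebo libraries, with intervals of -0.68 to 0.95 and -0.25 to 0.46.

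E2+P4 changed 4 of the 6 genes in D542G (25.4% of all tested genes called, 12.4% lower, 13% higher). Tfap2c rose to 62.6, 62.3 and 71.5 CPM, 3 close values (log2 fold change 2.09 ± 0.55, adjusted p = 0.00563). Tbx3 fell to 92.2, 117 and 81.5 CPM (log2 fold change -1.11 ± 0.30, adjusted p = 0.00759). Foxa1 was lower at 191, 191 and 59.8 CPM (-1.42 ± 0.43, adjusted p = 0.0156), a call lost without D542G placebo 3 or D542G E2+P4 3 (adjusted p = 0.0857 and 0.0982). Gata3 was lower at 162, 271 and 143 CPM (-0.80 ± 0.26, adjusted p = 0.0238), a call lost without D542G placebo 2 or 3 or D542G E2+P4 1 or 3 (adjusted p from 0.0540 to 0.128) and with library totals in place of scaling factors (0.0632). Spdef, at 26.4, 43.2 and 29.7 CPM, and Grhl2, at 84.9, 77.8 and 97.1 CPM, were not called (adjusted p = 0.557 and adjusted p = 0.332). Hormone-sensing markers summed to 913 to 1590 CPM against 5987 to 6621 CPM with placebo, with 5 of 6 lower, and progenitor markers to 3024 to 7626 CPM against 994 to 2135 CPM, with 5 of 8 higher. Leukocyte markers summed to 29.7 to 53.0 CPM against 8.09 to 9.67 CPM and endothelial markers to 303 to 318 CPM against 140 to 212 CPM. The part of these markers was not tested.

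In Y541S cells E2 lowered Spdef to the lowest level of any group and no other of the 6 genes was called, with 4.65% of all tested genes called, 2.78% lower. Spdef was at 40.7, 33.7 and 6.44 CPM with placebo and 1.28, 1.87 and 3.81 CPM with E2, 11.6-fold lower (log2 fold change -3.54 ± 0.45, adjusted p = 5.81e-05). The third placebo value is library 5, and without it the log2 fold change was -4.00 (adjusted p = 1.87e-08). In an edgeR fit of these 2 groups alone Spdef was not called (-3.57, adjusted p = 0.134), but that fit called 0 of all tested genes, with 2595 at an unadjusted p under 0.05, against 1450 by DESeq2 over all libraries. Spdef is associated with goblet cell secretion in other epithelia.

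Other calls in this comparison also changed on leaving out library 5. Foxa1 was at 204, 205 and 187 CPM with placebo and 158, 85.2 and 72.7 CPM with E2, with no overlap and no call (log2 fold change -0.92 ± 0.43, adjusted p = 0.257), and -0.96 without library 5 (adjusted p = 0.237). Gata3 was at 256, 317 and 129 CPM and 160.1, 116 and 178 CPM (log2 fold change -0.63 ± 0.26, adjusted p = 0.192). Without library 5 it was called (-0.92, adjusted p = 0.0162). Tbx3, at 108, 116 and 43.9 CPM and 50.2, 40.2 and 65.3 CPM (-0.78 ± 0.30, adjusted p = 0.153), was also called without it (-1.11, adjusted p = 0.0119).

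Grhl2 lay at 103, 114 and 81.8 CPM with placebo and 92.9, 82.2 and 88.2 CPM with E2 in Y541S (interval -0.54 to 0.17), and the log2 fold change was -0.18, or -0.31 without library 5 (adjusted p = 0.354). Tfap2c was at 19.5, 24.8 and 93.5 CPM and 103, 83.3 and 105 CPM (log2 fold change 1.08 ± 0.53, adjusted p = 0.294), the placebo library 5 being as high as the E2 libraries. Without library 5 Tfap2c was 2.14 higher on the log2 scale (adjusted p = 0.0129), which brought the calls to 4 of 6. Progenitor markers summed to 6479 to 10930 CPM in Y541S E2. Library 5, at 6051 CPM, was nearer to that range than the other Y541S placebo libraries, and its part in the result beyond the values without it was not tested.

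P4 lowered Foxa1 and Gata3 in Y541S (11.3% of all tested genes called, 6.13% lower). Foxa1 was at 49.9, 53.9 and 49.8 CPM, far below each Y541S placebo library (log2 fold change -1.96 ± 0.44, adjusted p = 0.00371), and -2.00 without library 5 (adjusted p = 0.00588). Gata3 was at 112, 149.8 and 111 CPM (log2 fold change -0.91 ± 0.26, adjusted p = 0.0226), overlapping library 5, and -1.20 without it (adjusted p = 0.00153). The Gata3 call was lost without Y541S placebo 2 or 3 or Y541S P4 1 or 3 (adjusted p from 0.0725 to 0.169). Tbx3 read 78.3, 69.9 and 63.0 CPM, Spdef 41.1, 41.6 and 40.6 CPM, Grhl2 90.3, 112 and 102 CPM and Tfap2c 55.9, 59.6 and 60.2 CPM. None of these 4 was called, with adjusted p from 0.371 for Spdef to 0.959 for Grhl2. Without library 5 none was called either, but the values moved: Tfap2c from 0.35 to 1.402 (adjusted p = 0.0950), Tbx3 from -0.34 to -0.67 (adjusted p = 0.140), Spdef from 0.61 to 0.14 and Grhl2 from 0.02 to -0.10.

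E2+P4 lowered 4 of the 6 genes in Y541S (18.5% of all tested genes called, 10.1% lower). Foxa1, at 37.4, 34.6 and 39.4 CPM, had its lowest group mean of the study (log2 fold change -2.42 ± 0.45, adjusted p = 3.40e-04). Gata3 was at 137, 109 and 126 CPM (log2 fold change -0.92 ± 0.26, adjusted p = 0.0140), Tbx3 at 42.1, 46.5 and 59.6 CPM (-0.85 ± 0.30, adjusted p = 0.0483) and Grhl2 at 75.1, 55.9 and 70.6 CPM (-0.57 ± 0.17, adjusted p = 0.0207). Spdef (15.7, 16.7 and 18.9 CPM, adjusted p = 0.275) and Tfap2c (85.5, 73.5 and 69.7 CPM, adjusted p = 0.368) were not called. Hormone-sensing markers summed to 925 to 1281 CPM in Y541S P4 and 894 to 1029 CPM in Y541S E2+P4, and their part was not tested. Without library 5 all 6 genes were called: Spdef at -1.12 (adjusted p = 0.0143), Tfap2c at 1.78 (adjusted p = 0.0216), and the other 4 lower at -2.46 for Foxa1, -1.21 for Gata3, -1.18 for Tbx3 and -0.69 for Grhl2. With library 5 kept, Gata3 and Grhl2 lost their calls without Y541S placebo 2 or 3 or E2+P4 2 (adjusted p from 0.0527 to 0.131), and Tbx3 without Y541S placebo 2 or 3 or any 1 E2+P4 library (adjusted p from 0.0589 to 0.237).

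Without hormone, Tbx3 was lower in both mutants than in WT. D542G placebo differed from WT placebo in 1 of the 6 genes (2.02% of all tested genes called, 0.782% lower), Tbx3 at 209.7 ± 22.4 against 507 ± 112 CPM (mean ± SD, n = 3 each), 2.42-fold lower (log2 fold change -1.27 ± 0.30, adjusted p = 0.0224). That call was lost without WT placebo 1 or 3 or any 1 D542G placebo library (adjusted p from 0.0625 to 0.108), while the libraries of the groups did not overlap. Foxa1 and Grhl2 were lower in D542G placebo, at -0.83 and -0.46 on the log2 scale without passing (adjusted p = 0.460 and adjusted p = 0.226). Gata3 and Spdef had intervals of -0.39 to 0.68 and -0.77 to 0.86.

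Y541S placebo was lower than WT placebo in Foxa1 and Tbx3 (13.4% of all tested genes called, 6.22% lower). Tbx3 was 5.67-fold lower (log2 fold change -2.50 ± 0.32, adjusted p = 2.55e-06) and Foxa1 3.51-fold lower (log2 fold change -1.81 ± 0.43, adjusted p = 0.00488), with no overlap in either. Both were also called without library 5, which leaves the libraries with the high Dcn (-2.18, adjusted p = 2.41e-05, and -1.77, adjusted p = 0.0255). Grhl2 was -0.49 and missed the threshold (adjusted p = 0.0563), but passed without Y541S placebo 3 (-0.60, adjusted p = 0.0414). It was -0.37 without library 5 (adjusted p = 0.259). Tfap2c was 0.83 (adjusted p = 0.341) and turned to -0.22 without library 5 (adjusted p = 0.881). Gata3 and Spdef were not called (-0.37 and -0.61, or -0.08 and -0.14 without it). Of the 7 fibroblast markers Dcn and Col1a1 were higher than in WT placebo, where their sum was 37.8 to 283 CPM, and their part in the Foxa1 and Tbx3 results was not tested. Tbx3 was the 1 gene of the 6 that differed between Y541S and D542G placebo (-1.23 ± 0.30, adjusted p = 0.00873, 11.9% of all tested genes called, 5.24% lower), and without library 5 it did not (-0.91, adjusted p = 0.0894). Tfap2c, at 1.58 (adjusted p = 0.0559), was called there without Y541S placebo 2 or 3 (adjusted p = 0.0231 and 0.0303), which leaves library 5 and 1 other. It was 0.53 without library 5 (adjusted p = 0.705).

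**Figure D3:**
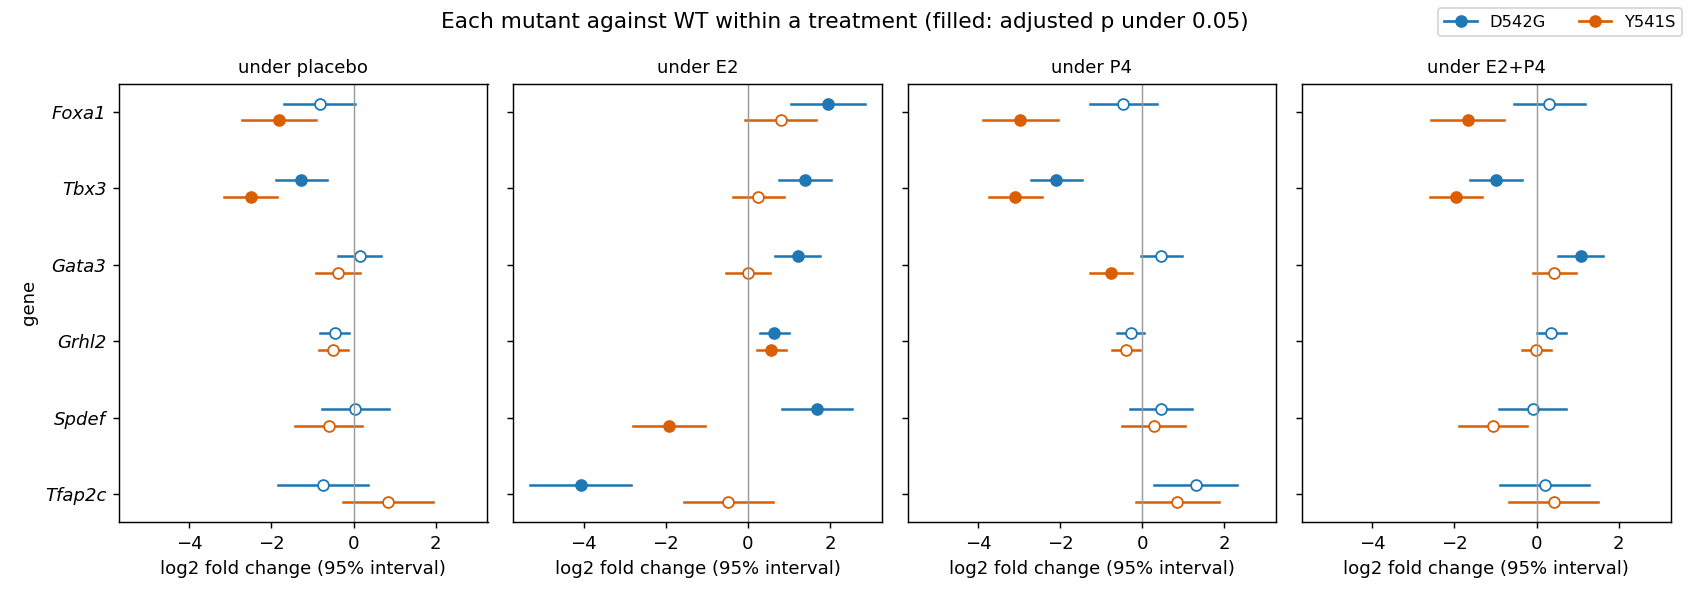
Log2 fold change of each mutant against WT under the same treatment, with 95% intervals over 3 or 4 libraries a group; filled points had an adjusted p under 0.05. Under E2 all 6 D542G points are filled, 5 above 0 and Tfap2c below; under P4 the Tbx3 points of both mutants and the Foxa1 and Gata3 points of Y541S are filled below 0.

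Under E2 the D542G cells differed from WT cells in all 6 genes (29.1% of all tested genes called, 13.8% lower, 15.4% higher). Foxa1 (log2 fold change 1.96 ± 0.44, adjusted p = 0.00113), Tbx3 (log2 fold change 1.39 ± 0.31, adjusted p = 9.69e-04), Gata3 (1.21 ± 0.26, adjusted p = 8.63e-04), Spdef (1.69 ± 0.41, adjusted p = 0.00259) and Grhl2 (0.64 ± 0.17, adjusted p = 0.00559) were higher. Tfap2c was 16.8-fold lower (-4.07 ± 0.60, adjusted p = 8.97e-06). The groups did not overlap in any of the 6, as in 34.6% of all tested genes. The Grhl2 call was lost without WT E2 2 (adjusted p = 0.0612) or D542G E2 1 (0.0567). All 6 hormone-sensing markers were higher in D542G E2 and 7 of 8 progenitor markers were lower, and their part was not tested.

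Y541S E2 differed from WT E2 in 2 genes (12.3% of all tested genes called, 5.79% lower, 6.49% higher). Spdef was lower (log2 fold change -1.92 ± 0.42, adjusted p = 0.00318), and Grhl2 was higher (log2 fold change 0.57 ± 0.17, adjusted p = 0.0282). The Grhl2 call was lost without WT E2 1 or 2 or Y541S E2 1 or 3 (adjusted p from 0.0530 to 0.207). Gata3 was at nearly equal means in the 2 groups, 151 ± 31.6 and 151 ± 44.3 CPM (mean ± SD, n = 3), with an interval of -0.53 to 0.54. In a fit of these 2 groups alone Spdef was not called (adjusted p = 0.0820).

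Under P4, Tbx3 was lower than in WT P4 in D542G (log2 fold change -2.09 ± 0.30, adjusted p = 2.99e-05, 13% of all tested genes called, 6.8% lower) and in Y541S (log2 fold change -3.09 ± 0.32, adjusted p = 6.08e-08, 27.6% of all tested genes called, 13% lower). Foxa1 was 7.80-fold lower in Y541S P4 (-2.96 ± 0.44, adjusted p = 1.18e-05) and Gata3 1.70-fold lower (-0.77 ± 0.25, adjusted p = 0.0210). The Gata3 call was lost without WT P4 4 or Y541S P4 1 or 3 (adjusted p from 0.0566 to 0.0925). Tfap2c was higher in D542G P4 by 1.30 without passing (adjusted p = 0.0795), and passed without WT P4 2 (1.61, adjusted p = 0.0436). Grhl2 in Y541S P4 (-0.39, adjusted p = 0.0713) passed without WT P4 3 (-0.48, adjusted p = 0.0379). Without WT placebo 2, WT P4 2 and Y541S placebo 5, Tfap2c was called as higher than WT P4 in both mutants, at 1.61 in D542G (adjusted p = 0.0145) and 1.17 in Y541S (adjusted p = 0.0491).

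With both hormones 2 genes differed from WT in each mutant. In D542G E2+P4 (6.69% of all tested genes called, 4.56% lower, 2.12% higher) Gata3 was higher (log2 fold change 1.07 ± 0.26, adjusted p = 0.0117) and Tbx3 lower (log2 fold change -0.99 ± 0.30, adjusted p = 0.0468). Gata3 lost its call without WT E2+P4 2 or D542G E2+P4 2 (adjusted p = 0.0551 and 0.130), and Tbx3 without WT E2+P4 2 or 3 or any 1 D542G E2+P4 library (adjusted p from 0.0628 to 0.246). In Y541S E2+P4 (14.5% of all tested genes called, 8.5% lower) Tbx3 (-1.96 ± 0.31, adjusted p = 6.43e-05) and Foxa1 (-1.68 ± 0.43, adjusted p = 0.00844) were lower. Foxa1 lost its call without WT E2+P4 3 (-0.96, adjusted p = 0.167), and Spdef gained one without WT E2+P4 1 (-1.25, adjusted p = 0.0498). Tbx3 was thus lower than in WT in both mutants with placebo, P4 and E2+P4, and under E2 it was higher in D542G and not called in Y541S (-0.36 to 0.88).

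The change from placebo with E2 differed from that of WT in both mutants, by a test of the difference of differences. Both tests share the WT libraries, and each difference takes in the placebo levels as well as those under E2. Tbx3 was lower in D542G placebo than in WT placebo (-1.27) and higher in D542G E2 than in WT E2 (1.39). For D542G, 4 of the 6 genes were called (9.23% of all tested genes): Foxa1 (log2 difference 2.78 ± 0.61, adjusted p = 0.00335), Tbx3 (log2 difference 2.66 ± 0.43, adjusted p = 2.23e-04) and Grhl2 (1.10 ± 0.24, adjusted p = 0.00378) fell less in D542G, and Tfap2c differed in the other direction (-3.32 ± 0.77, adjusted p = 0.00562). Gata3 (1.06 ± 0.37, adjusted p = 0.0683) and Spdef (1.64 ± 0.57, adjusted p = 0.0694) did not pass, and both passed without WT placebo 2 (adjusted p = 0.0465 and 0.0323). Gata3 also passed without WT E2 3 (0.0228) and Spdef without WT E2 2 (0.0489). Both did with DESeq2, which makes 6 of 6, against 2411 calls over all genes.

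For Y541S 3 genes were called (8.02% of all tested genes), Foxa1 (log2 difference 2.61 ± 0.61, adjusted p = 0.00715), Tbx3 (log2 difference 2.76 ± 0.43, adjusted p = 1.89e-04) and Grhl2 (1.07 ± 0.24, adjusted p = 0.00624). Spdef did not pass (-1.31 ± 0.58, adjusted p = 0.173) but did without library 5 (-1.77, adjusted p = 0.0164), with a larger fall in Y541S than in WT. The Tfap2c difference was -1.31 (interval -2.85 to 0.23) and -0.26 without library 5 (adjusted p = 0.912). Without it Foxa1, Tbx3 and Grhl2 were still called (2.57, 2.44 and 0.94), and Gata3 was not called with or without it (0.38 and 0.09). Foxa1 and Tbx3 were lower in Y541S placebo than in WT placebo, so these differences combine a lower level without hormone with the level under E2. Under E2 neither gene was called as different between Y541S and WT (0.80, adjusted p = 0.232, and 0.26, adjusted p = 0.632).

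None of the 6 genes had a P4 or E2+P4 response that was called as different from WT in either mutant (3.35% and 7.33% of all tested genes called for P4, 4.3% and 8.68% for E2+P4, in D542G and Y541S). At an unadjusted p under 0.05 the counts were 1 and 0 for P4 and 2 and 1 for E2+P4. Over all 18426 tested genes they were 3294, 4068, 3288 and 4172. DESeq2 called 1, 0, 1 and 0 in that order, namely Tfap2c (2.10, adjusted p = 0.0438) for P4 and Grhl2 (0.80, adjusted p = 0.0254) for E2+P4 in D542G. Its calls over all genes were 1273, 2134, 1428 and 2286. Without library 5 the Y541S responses were not called either (adjusted p from 0.175 to 0.993 for P4 and from 0.240 to 0.985 for E2+P4). In the edgeR fit over all libraries the P4 response of Tfap2c, called in D542G and not in WT, was not called as different between them (log2 difference 2.05 ± 0.73, adjusted p = 0.118). In fits of only the compared groups, the P4 responses of Tfap2c in D542G (adjusted p = 0.032) and Foxa1 in Y541S (-1.13, adjusted p = 0.0165) were called. So was the E2+P4 response of Grhl2 in D542G (0.0279), with 767, 1387 and 841 calls over all genes in that order. With library totals, Gata3 and Grhl2 were called for E2+P4 in D542G (0.0253 and 0.0036) and Y541S (0.038 and 0.0275). Calls over all genes were then 1163 and 2254. In the mutants the combined response was not called as different from the sum of the single responses in any of the 6 genes (3.89% and 0.564% of all tested genes called in D542G and Y541S; 0 and 1 at an unadjusted p under 0.05; 0 and 1 by DESeq2). Over all genes 3339 and 1980 had an unadjusted p under 0.05, and DESeq2 called 1428 and 436. The exception by DESeq2 was Spdef in Y541S. By edgeR it was not called (log2 difference 2.27 ± 0.58, adjusted p = 0.0617), but it was without library 5 (2.73, adjusted p = 7.49e-04) or without Y541S E2 3 (2.83, adjusted p = 0.0327). The other 5 genes were not called in Y541S without library 5 (adjusted p from 0.167 to 0.831).

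Some calls also depended on the fit. With only the compared groups in the fit, 15 of the 59 calls over all comparisons were lost. Against placebo these were Foxa1 and Gata3 with E2+P4 in D542G (adjusted p = 0.0604 and 0.0579), Spdef with E2, Gata3 with P4 (0.127) and Gata3, Tbx3 and Grhl2 with E2+P4 in Y541S (0.0970, 0.157 and 0.0751). Between genotypes they were Grhl2 in D542G E2 and Y541S E2 (0.145 and 0.216) and Spdef in Y541S E2 against WT E2, Gata3 and Tbx3 in D542G E2+P4 against WT E2+P4 (0.0824 and 0.145) and Tbx3 between the mutants' placebo groups (0.117). The Grhl2 E2 response in Y541S against WT (1.03, adjusted p = 0.0900) and the Foxa1 departure from additivity in WT (0.0885) were lost too. The same fits also added calls. Against WT, Grhl2 in D542G placebo (0.0494) and Spdef and Tfap2c in D542G P4 (0.0487 and 0.0471) were called. So were Grhl2 and Tfap2c in Y541S P4 (0.0482 and 0.0242) and Spdef in Y541S E2+P4 (0.0220). Gata3 and Spdef gained calls for the E2 response in D542G against WT (0.0484 and 0.0482), besides the P4 and E2+P4 responses given above. Without the filter on low counts Tbx3 lost its calls for E2 in D542G (0.0612), E2+P4 in Y541S (0.0726) and D542G E2+P4 against WT (0.0717), and with library totals in place of scaling factors the last of these was at 0.114. The Foxa1 departure from additivity also failed under both settings (0.0785 and 0.0767) and in the first identifier series (0.0691), as did Gata3 in Y541S P4 against WT P4 (0.0869) in that series and Tbx3 between the mutants' placebo groups (0.0706).

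**Figure D4:**
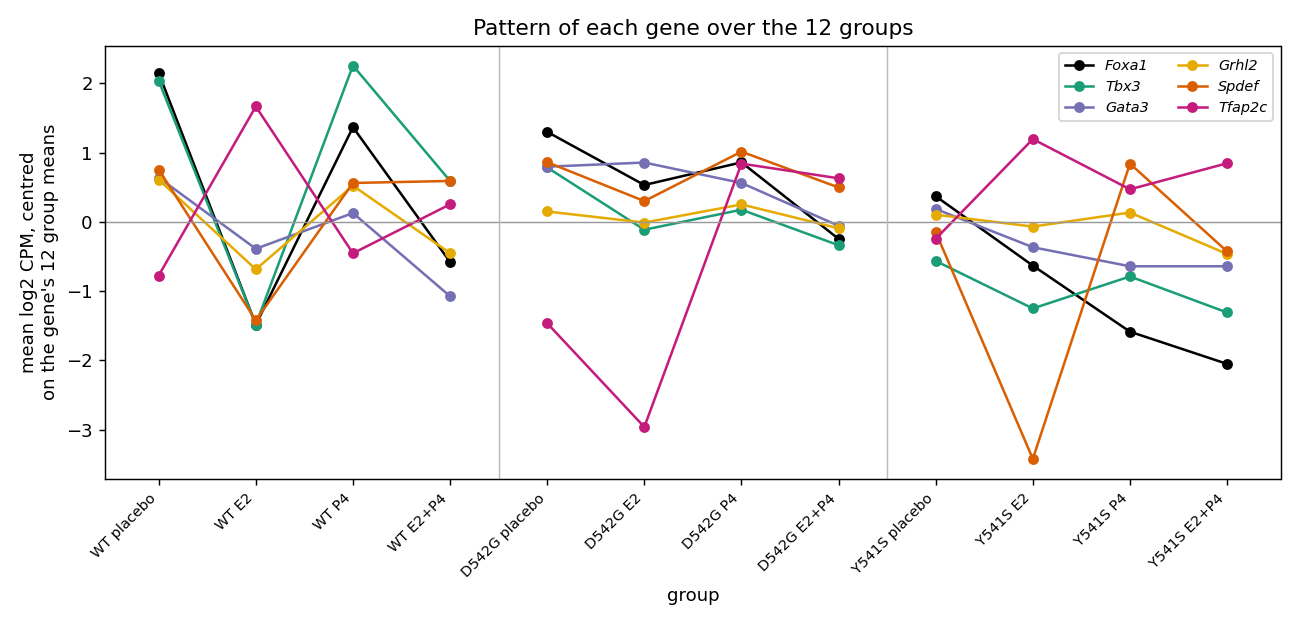
Mean log2 CPM of each gene in the 12 groups, centred on the gene's mean over the groups; lines join treatments within a genotype. Foxa1 and Tbx3 swing together in WT, Grhl2 stays within 1.29 on the log2 scale, and Tfap2c peaks in WT E2 where the 5 others dip.

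Over the 12 group means the ratio of the highest to the lowest level was 20.1 for Spdef (D542G P4 over Y541S E2), 18.8 for Foxa1 (WT placebo over Y541S E2+P4), 16.8 for Tfap2c (WT E2 over D542G E2), 13.8 for Tbx3 (WT P4 over WT E2), 3.81 for Gata3 (D542G E2 over WT E2+P4) and 2.38 for Grhl2 (WT placebo over WT E2). When groups were ordered by mean, most neighbours overlapped: 10 of 11 neighbouring pairs for Gata3, Tbx3 and Grhl2, 9 of 11 for Foxa1 and Spdef and 8 of 11 for Tfap2c. The order of Foxa1 was WT placebo, WT P4, D542G placebo, D542G P4, D542G E2, Y541S placebo, D542G E2+P4, WT E2+P4, Y541S E2, WT E2, Y541S P4 and Y541S E2+P4, with gaps after the first and the eleventh. In Tbx3 WT P4 and WT placebo came first, followed after a gap by D542G placebo, WT E2+P4, D542G P4, D542G E2, D542G E2+P4, Y541S placebo, Y541S P4, Y541S E2, Y541S E2+P4 and WT E2. Tfap2c ran from WT E2, after a gap, through Y541S E2, D542G P4, Y541S E2+P4 and D542G E2+P4, then after another gap Y541S P4, WT E2+P4, Y541S placebo, WT P4 and WT placebo, and after the third D542G placebo and D542G E2. The place of Y541S placebo in these orders includes library 5, which was at 93.5 CPM of Tfap2c against 19.5 and 24.8 CPM in the other libraries, and at 43.9 CPM of Tbx3 against 108 and 116 CPM.

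Gata3 ran from D542G E2, D542G placebo, WT placebo, D542G P4, Y541S placebo, WT P4, D542G E2+P4, Y541S E2, WT E2, Y541S P4 and Y541S E2+P4 down to WT E2+P4, with its only gap before the last. Spdef began with D542G P4, D542G placebo, WT placebo, Y541S P4, WT E2+P4, WT P4, D542G E2+P4, D542G E2, Y541S placebo and Y541S E2+P4, and after gaps came WT E2 and then Y541S E2. Library 5 of Y541S placebo was at 6.44 CPM of Spdef against 40.7 and 33.7 CPM, so that its place too includes 1 library apart. The order of Grhl2 was WT placebo, WT P4, D542G P4, D542G placebo, Y541S P4, Y541S placebo, D542G E2, Y541S E2, D542G E2+P4 and, after its only gap, WT E2+P4, Y541S E2+P4 and WT E2.

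Likeness of pattern was measured as the root mean square difference of centred mean log2 CPM over the 12 groups. Between Gata3 and Grhl2, whose group means spanned the narrowest ranges (1.93 and 1.29 on the log2 scale), it was 0.47, and between Foxa1 and Tbx3, with ranges of 4.20 and 3.74, it was 0.69. Tfap2c was 1.43 to 2.23 from the others. Among the 10327 genes ranked (those whose log2 CPM averaged 2 or more), the closest to Tbx3 were Eps8 (0.41), Esr1 itself (0.41), Lmx1b, Gadd45g and Fam210b (up to 0.47). Esr1 was at 688 ± 129.7 CPM in WT placebo, 24.2 ± 14.8 in WT E2, 171 ± 25.9 in D542G placebo and 82.1 ± 25.1 in Y541S placebo (mean ± SD, n = 3 each). Closest to Tfap2c were Sertad4 (0.20), Cadm1, Sox10, Epb41l4a and Fads2 (up to 0.34), and Sox10, a factor of mammary progenitor and basal cells, was at 27.4 ± 11.1 CPM in WT placebo, 231 ± 41.8 in WT E2 and 8.05 ± 3.81 in D542G E2. For Foxa1 they were Igdcc4 (0.45), Map3k12, Prkd1, Abhd17c and Rnf225 (up to 0.54), and for Spdef Arg2 (0.42), Cdo1, Ankrd33b, Fbxo44 and Atp6v0e2 (up to 0.66). For Gata3 they were Nudt22 (0.25), Polg2, Dexi, Cand2 and Arhgap18 (up to 0.28), and for Grhl2 Fchsd2 (0.13), Plekhn1, Zfp148 and Ncor1 (up to 0.16). A gene with a narrow range, such as Grhl2, has small differences from many genes, so these values are not comparable between the 6.

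Lists of related genes, drawn up from general knowledge with earlier results of these data known, were counted in the same fits. Of 18 tested paralogs of the 6 genes, 1 was higher and 4 were lower with E2 in WT (31.5% of all tested genes called in either direction), with a median log2 fold change of -0.57 against 0.03 over all genes. Tfap2b, the AP-2 beta paralog of Tfap2c, moved opposite to it, from 115 ± 14.9 CPM in WT placebo to 21.6 ± 1.003 CPM in WT E2 (log2 fold change -2.42 ± 0.30, adjusted p = 6.80e-07). Grhl1 moved with Grhl2 (-1.22 ± 0.24, adjusted p = 2.70e-04), from 243 ± 9.49 to 104 ± 52.6 CPM. With E2 in D542G, 1 paralog was higher and 2 were lower (15.7% called), and here Grhl1 (-1.64 ± 0.24, adjusted p = 2.20e-05) and Tfap2b (-1.49 ± 0.29, adjusted p = 5.15e-04) fell although Grhl2 and Tfap2c were not called. In Y541S Tfap2b fell with E2 (-1.37 ± 0.29, adjusted p = 0.00506) and rose with P4 (1.91 ± 0.29, adjusted p = 8.26e-05).

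Of 13 tested other hormone-sensing genes, 6 of them also in the marker set, 8 were lower and 2 higher with E2 in WT (15.9% of all tested genes lower, 15.6% higher), and the median was -1.46. Esr1 (-4.82 ± 0.39, adjusted p = 1.73e-09), Prlr, the prolactin receptor (-3.65 ± 0.37, adjusted p = 3.43e-08), Cited1, a receptor coactivator (-5.16 ± 0.55, adjusted p = 8.56e-08), and Wnt4, a paracrine signal (-4.29 ± 0.62, adjusted p = 5.69e-06), fell most clearly. Adding P4 to E2 raised 9 of the 13 (18.5% of all tested genes called, 10.2% higher), among them Esr1 (3.28 ± 0.36, adjusted p = 2.24e-07) and Prlr (2.71 ± 0.35, adjusted p = 2.37e-06). With E2 in D542G 2 were higher and 3 lower (15.7% called), and with E2 in Y541S 1 was higher and 2 lower (4.65% called).

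Of 15 tested progenitor and alveolar transcription factors, 3 rose and 3 fell with E2 in WT, where 31.5% of all tested genes were called, so the count is near the share over all genes. Ehf (2.50 ± 0.45, adjusted p = 9.14e-05) and Elf5, the alveolar master factor (2.50 ± 0.46, adjusted p = 1.33e-04), rose with Tfap2c, while Runx1 (-2.21 ± 0.21, adjusted p = 2.14e-08) and Sox9 (-1.38 ± 0.25, adjusted p = 1.19e-04) fell. In D542G P4, where Tfap2c rose, 4 rose and 3 fell (18.4% of all tested genes called), with Ehf at 2.87 ± 0.46, adjusted p = 9.70e-05 and Sox10 at 2.91 ± 0.62, adjusted p = 0.00170. In D542G E2 against WT E2, 10 of the 15 were lower and 1 was higher (13.8% of all tested genes lower, 15.4% higher), with Sox10 at -4.84 ± 0.68, adjusted p = 4.32e-06 and Id2, an inhibitor of helix-loop-helix factors, at -2.52 ± 0.31, adjusted p = 9.30e-07.

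Epithelial junction and splicing genes, many of them known Grhl2 targets, did not share the fall of Grhl2. Of 15 tested, 4 were higher with E2 in WT (15.6% of all tested genes higher, 15.9% lower) and the other 11 were not called. The 4 were Cldn7 (1.15 ± 0.14, adjusted p = 4.19e-07), St14 (0.70 ± 0.12, adjusted p = 6.83e-05), Cldn3 (0.78 ± 0.15, adjusted p = 2.04e-04) and Ovol2 (1.44 ± 0.33, adjusted p = 0.00124), and the median of the 15 was 0.32. With E2+P4 in WT 6 were higher and 1 lower (23.4% of all tested genes called). Of 8 tested secretory genes associated with Spdef in goblet cells, 2 were higher and 1 lower with E2 in WT, near the 31.5% of all tested genes called. Creb3l4 fell (-1.16 ± 0.31, adjusted p = 0.00457), while Agr3 (3.14 ± 1.21, adjusted p = 0.0475) and Muc5b (3.96 ± 1.51, adjusted p = 0.0455) rose, opposite to Spdef. When P4 was added to E2, Creb3l4 (1.62 ± 0.31, adjusted p = 4.25e-04) and Foxa3 (7.46 ± 1.775, adjusted p = 0.00457) rose. Foxa3 had a log2 fold change of 0 and no standard error for WT E2 against WT placebo, as in a gene without counts in either group. Its rise thus starts from the floor, and the size of the fold change is uncertain. Muc5b fell when P4 was added to E2 (-5.77 ± 1.82, adjusted p = 0.0253), with 18.5% of all tested genes called. In Y541S E2, where Spdef was lowest, 1 of the 8 was lower and the other 7 were not called (4.65% of all tested genes called). Of 14 tested GATA and FOXA partners, 2 were higher and 4 lower with E2 in WT, near the 31.5% of all tested genes called, among them Kmt2d, a histone methyltransferase (-1.27 ± 0.28, adjusted p = 0.00102), and Ldb1, a bridge between GATA factors and LIM proteins (-0.66 ± 0.17, adjusted p = 0.00348). Tle1, a corepressor, was higher than WT in both mutants with placebo (0.94 ± 0.24, adjusted p = 0.0368 in D542G and 1.56 ± 0.25, adjusted p = 5.35e-05 in Y541S). Of 11 basal and mesenchymal factors tested 1 was higher and 2 were lower with E2 in WT, near the same 31.5%.

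**Figure D5:**
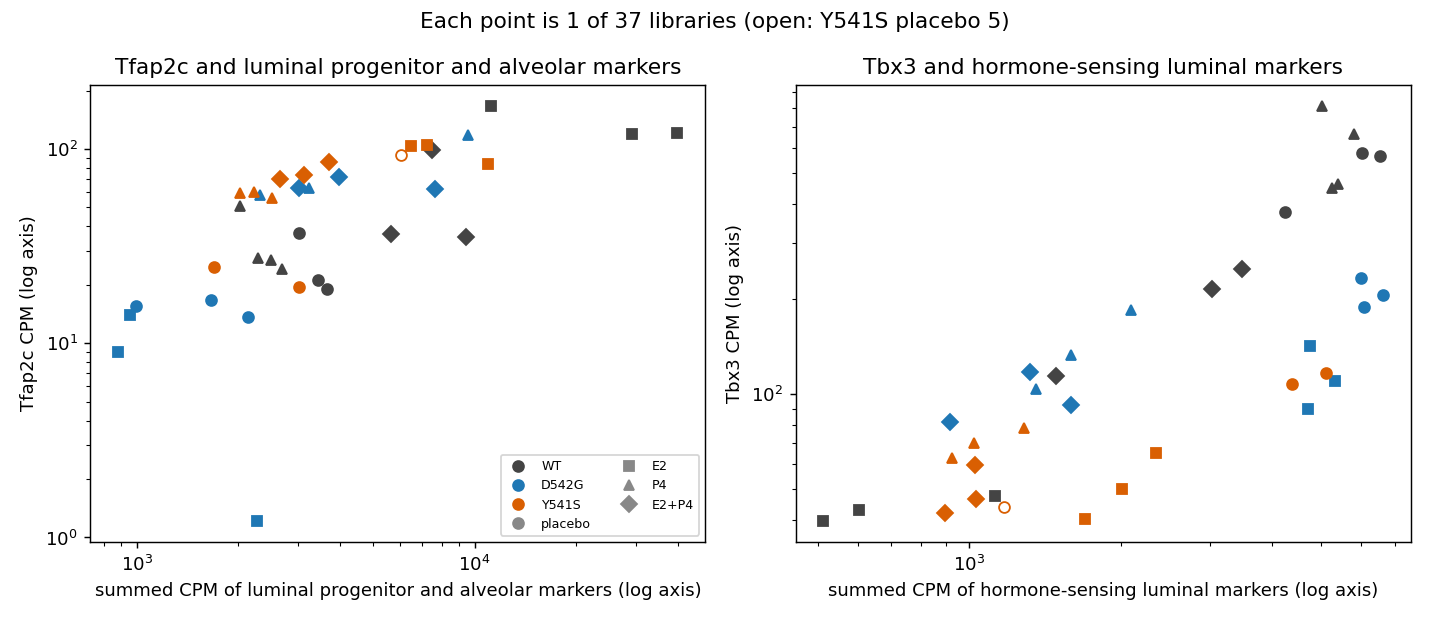
Left, Tfap2c CPM against the summed CPM of 9 progenitor and alveolar markers; right, Tbx3 CPM against the summed CPM of 6 hormone-sensing markers, both on log axes; each point is 1 of 37 libraries, coloured by genotype and shaped by treatment, with Y541S placebo 5 open. The WT E2 libraries are at the upper right on the left panel and the lower left on the right panel, and the D542G E2 libraries are low in Tfap2c (1.21 to 14.0 CPM) with 884 to 2272 CPM of progenitor markers.

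Tfap2c and Tbx3 did not track the marker sums in every group. D542G placebo had 5987 to 6621 CPM of hormone-sensing markers, within or above the WT placebo range of 4231 to 6545 CPM, while its Tbx3 level (189, 234 and 206 CPM) lay below every WT placebo library. Y541S placebo 2 and 3, with 4370 and 5112 CPM of those markers, also lay within the WT placebo range, at 108 and 116 CPM of Tbx3. These sums do not describe each marker alone. Esr1, a member of the hormone-sensing set, had a lower mean in the placebo groups of both mutants than in WT placebo, as given above. Y541S P4 had 2017 to 2510 CPM of progenitor markers, much as WT P4 had (2024 to 2690 CPM), and its Tfap2c values (55.9, 59.6 and 60.2 CPM) all lay above those of WT P4, although that difference was not called with all libraries (adjusted p = 0.206).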

How the data were processed

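The deposited files hold, per library and gene, a raw count, a width and an RPKM value, and only the counts were used here, as the authors deposited them. Per the submitters' processing notes the build was GRCm38, and the aligner, counter and strand setting are not given in the sources used here. Libraries were made with Nextera XT, per the labels' protocols, which does not mark strand. Gene identifiers were matched to symbols with GENCODE M21 (52403 of 52636 matched).

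Genes with low counts were removed (filterByExpr by group), which left 18426. Libraries were scaled by TMM (factors 0.77 to 1.17), and 1 quasi-likelihood model over all 37 libraries and 12 groups (edgeR 4.0.16, robust, R 4.3.3; common biological coefficient of variation 0.458, 25 residual degrees of freedom) gave 29 comparisons. The threshold for a call was 0.05 after Benjamini-Hochberg adjustment across every tested gene of a comparison. Levels are CPM, the count of a gene over the TMM-scaled library total in M. Values after ± are standard errors for log2 fold changes and SDs over libraries for levels, and intervals are 95%. The code was tested on simulated counts. No replicate pair of a group agreed within sampling noise (lowest chi-square per degree of freedom 23.3).

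The 6 genes and all gene lists were chosen with earlier results of these data known. The text names the 6 genes, up to 4 called genes per list and comparison with the smallest adjusted p, and the 5 genes most like each of the 6, of which 1 is not reported here. Alternatives were DESeq2 1.42.0, other scalings, no filter on low counts, a replicate block, fits of only the compared groups, the first identifier series only and leaving out libraries. The set without WT placebo 2, WT P4 2 and Y541S placebo 5 was chosen after seeing the data. RefSeq promoters were matched by symbol for 3 of the 6 genes.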

Additional observations from a re-analysis of the deposited data

Results flagged for a closer look

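In WT P4, a group of 4 libraries, the Tfap2c level of 51.13 CPM in library 2 stood apart from the other 3, with a gap to its neighbour of 0.869 of the group's range. By chance about 1 in 20 groups gives such a gap. The same library had 821 CPM of basal and myoepithelial markers, against 76.58 to 80.07 CPM in the other 3, and their part in the Tfap2c value was not tested.

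The E2 response differed between genotypes in 7 tests of the difference itself. In D542G against WT the difference of log2 responses was 2.78 for Foxa1, 2.66 for Tbx3, 1.10 for Grhl2 and -3.32 for Tfap2c. In Y541S against WT it was 2.61 for Foxa1, 2.76 for Tbx3 and 1.07 for Grhl2. Both sets share the WT placebo and WT E2 libraries. Each difference takes in the placebo levels as well as those under E2. With placebo, Tbx3 in both mutants and Foxa1 in Y541S were called as lower than in WT. Foxa1 (-0.83), Grhl2 (-0.46) and Tfap2c (-0.75) in D542G and Grhl2 in Y541S (-0.49) were lower there without a call.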

How the results depend on the processing

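Of 174 pairs of a gene and a comparison, 59 were called, 39 of them under every alternative run. In 20 the call was lost under at least 1 alternative, in 3 of these only on leaving out a library. No called pair changed sign, and 30 uncalled pairs were called under at least 1 alternative. On leaving out 1 library at a time, the calls ranged from 10 to 10 for hormones in WT (10 with all libraries), 3 to 6 in D542G (6) and 3 to 12 in Y541S (7). They ranged from 6 to 7 for E2+P4 against each single hormone in WT (6), 8 to 11 for D542G against WT (10), 8 to 10 for Y541S against WT (9), 0 to 2 for Y541S placebo against D542G placebo (1), 7 to 9 for the mutants' responses against the WT response (7) and 2 to 4 for departure from additivity (3). The 3 calls in D542G came without D542G placebo 3. In Y541S 12 came without Y541S placebo 5, and 3 without Y541S placebo 2 or 3.

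Y541S hormone calls were 12 in the first identifier series alone, 12 without WT placebo 2, WT P4 2 and Y541S placebo 5, and 2 in fits of only the compared groups. Y541S placebo against D542G placebo gave 2 calls with library totals and with DESeq2, and 0 in the first identifier series, without the 3 libraries and in the fit of only those groups. Responses against WT gave 11 calls each with library totals, with DESeq2 and in fits of only the compared groups. The cause was not tested. Library totals shifted the median log2 fold change of all genes by more than 0.1 in some comparisons, to -0.28 in WT E2+P4 against WT E2 and 0.34 in D542G P4 against placebo.

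Replicate numbers did not pair the libraries: same-numbered libraries' deviations from group means had a median correlation of 0.001 over 178 pairs (-0.504 to 0.56), other pairs 0.002, and 10 of 37 libraries correlated best with their own number. With the replicate block the calls were 10, 5 and 6 for hormones in WT, D542G and Y541S, 6 for E2+P4 against each single hormone, 9 each for D542G and Y541S against WT, 1 for Y541S against D542G placebo, 7 for responses and 2 for additivity. The additivity count is a net one. Under that block Foxa1 (adjusted p = 0.102) and Spdef (1.93, adjusted p = 0.0540) lost their calls in WT, and Spdef in Y541S gained one (2.35, adjusted p = 0.0402). Tbx3 lost its calls for E2 in D542G (0.0624), E2+P4 in Y541S (0.077) and D542G E2+P4 against WT (0.0679). Counts went down to 42 for Tfap2c and 61 for Spdef, where counting error is largest relative to the value.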
